A study of Mus musculus with 9 samples.

Results

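The crystallins are the abundant soluble proteins of the eye lens, and 9 of their genes were followed here through RNA from mouse retina. The genes were taken by symbol from a deposited table of 25108 genes and gene models: the alpha crystallins Cryaa and Cryab, the beta crystallins Cryba1, Cryba2, Cryba4, Crybb1, Crybb2 and Crybb3, and the gamma crystallin Crygs. All 9 were present in the table, and 6 of them passed the filter on low values used for testing. The retinas came from C57BL/6 mice at postnatal day 17, with 3 libraries in each of 3 groups. IL-19 knockout mice with oxygen-induced retinopathy are called OIR KO, wild-type mice with the same retinopathy OIR WT, and wild-type controls that breathed room air throughout RA WT. Oxygen-induced retinopathy is a model of ischaemic eye disease: pups are exposed to high oxygen, retinal vessels regress, and after the return to room air the underperfused tissue becomes hypoxic and grows abnormal vessels. Room-air retinas of the knockout are not analysed here, and the genotypes were compared within retinopathy only. The labels do not give the oxygen schedule, the deleted part of Il19 or whether each library was 1 animal, so a p-value reflects the scatter between the libraries, part or all of which may be technical.

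Alpha crystallins belong to the small heat shock proteins and act as chaperones that hold unfolding proteins in solution. Cryaa is largely a lens gene, whereas Cryab is also expressed in heart, muscle and brain and in glia and neurons of the retina. Beta and gamma crystallins form a second, unrelated superfamily, whose members share a fold of Greek key motifs and give the lens fibre cell its refractive index. Transcripts of both superfamilies have been described in retina, in some cases after injury or stress, and the retina lies close to the lens during dissection. The lens genes and the levels of each library are therefore given together below.

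The promoters of 4 members are shown as examples. All 4 hold the Maf core explained below, and the promoter of Crybb2, which lacks it, is not shown. Each is the stretch of 250 bases before the RefSeq transcription start on GRCm38.p6, printed 5′ to 3′ on the strand of the gene. Capitals mark exact matches to TGCTGA or its reverse complement, the core of the recognition element of Maf factors, and to TATAAA, the TATA box. The intervals are chr17:31677681-31677930 on the plus strand for Cryaa, chr11:77725294-77725543 on the minus strand for Cryba1, chr5:112255570-112255819 on the plus strand for Crybb1 and chr5:113081585-113081834 on the minus strand for Crybb3.
Cryaa: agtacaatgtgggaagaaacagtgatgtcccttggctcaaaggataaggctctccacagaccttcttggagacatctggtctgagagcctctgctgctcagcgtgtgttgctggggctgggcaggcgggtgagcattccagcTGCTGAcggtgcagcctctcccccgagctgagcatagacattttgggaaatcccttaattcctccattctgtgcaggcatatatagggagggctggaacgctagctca
Cryba1: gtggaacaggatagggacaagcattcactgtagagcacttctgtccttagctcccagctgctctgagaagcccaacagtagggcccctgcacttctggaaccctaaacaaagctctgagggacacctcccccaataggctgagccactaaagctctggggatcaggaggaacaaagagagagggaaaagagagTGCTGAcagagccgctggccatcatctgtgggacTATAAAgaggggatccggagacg
Crybb1: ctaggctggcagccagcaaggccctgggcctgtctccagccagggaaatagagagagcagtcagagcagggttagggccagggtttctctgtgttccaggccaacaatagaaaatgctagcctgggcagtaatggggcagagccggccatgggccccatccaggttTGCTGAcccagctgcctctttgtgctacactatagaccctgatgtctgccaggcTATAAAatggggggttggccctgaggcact
Crybb3: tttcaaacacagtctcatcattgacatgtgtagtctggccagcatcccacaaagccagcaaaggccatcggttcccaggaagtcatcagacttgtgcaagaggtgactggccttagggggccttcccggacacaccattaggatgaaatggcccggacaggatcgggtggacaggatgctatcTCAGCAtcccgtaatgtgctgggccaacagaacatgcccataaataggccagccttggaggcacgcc

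RefSeq promoters were matched for 8 of the 9 members, without Cryab, and 3 motifs were searched on both strands of the 300 bases that run from 250 before to 50 after the start. The Maf core TGCTGA was found in 7 of the 8 promoters, against 19.5% of all 32851 promoters in the table. Cryaa held it with its first base 108 bases before the start, Cryba1 at 57, Crybb1 at 84 and, on the opposite strand, Crybb3 at 67. Cryba4 held 3 copies, and Crybb2 held none. TATAAA was found in 4 of the 8 promoters, against 13.6% of all promoters, and its first base lay 30 bases before the start in Crybb1 and 23 in Cryba1. The core of the heat shock element, GAANNTTC, had no match in the 8 promoters and was found in 7.86% of all promoters. No 2 of these matches overlapped, and a match describes the letters of the window only.

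On GRCm38, with the GENCODE M21 annotation, 4 of the 9 genes lay on chromosome 5 in 2 neighbouring pairs. Cryba4 (chr5:112246493-112252518, minus strand) and Crybb1 (chr5:112255815-112269585, plus strand) lay 3296 bp apart and are transcribed away from each other. Crybb2 (chr5:113058258-113070117) and Crybb3 (chr5:113075839-113081584) lay 5721 bp apart, both on the minus strand. Cryaa (chr17:31677807-31681733) was on the plus strand, as was Cryab (chr9:50751325-50756636). Cryba1 (chr11:77718615-77725283), Cryba2 (chr1:74889934-74893143) and Crygs (chr16:22805203-22811577) were on the minus strand. Cryaa overlapped the antisense gene AC090881.2, Cryab overlapped Hspb2, another small heat shock gene on the opposite strand, and Cryba1 overlapped Nufip2. Whether the counting used strand is not stated in the labels or the table, so reads of these 3 members cannot be told apart from reads of their overlapping partners. Crybb2 also overlapped the pseudogene Gm43247. In their coding sequences the closest pair of members, Crybb2 and Crybb3, shared 65.7% of aligned bases, and Cryaa and Cryab shared 59.2%. Among the gamma crystallins Cryga to Crygf, which are not members, Cryge and Crygf shared 98.1%, so their values are uncertain singly.

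The values are FPKM, that is, fragments per unit of gene length and per mapped fragment of the library, so levels of different genes can be set side by side per unit of length. The depth of the libraries is not known from the table, and an exact 0 can be a failed estimate, so such a gene is described as listed at 0. Across all tested genes, libraries of the same group correlated at 0.974 to 0.985 (Pearson's r across genes, which are not independent replicates). Rhodopsin and 6 other rod genes summed to 9261 to 12850 FPKM per library, so the labelled tissue was represented by its most abundant cell type. Il19 was listed at 0 in 8 of the 9 libraries and at 0.0406 FPKM in RA WT 1, so it does not check the genotype labels. In bulk RNA, fewer cells of a type and less RNA per cell cannot be told apart.

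Cryab stood apart from the other crystallin members in this series, and Crybb3 differed in part from the rest. Cryab was present at 24.0 to 41.6 FPKM in all 9 libraries, while the other 8 members were mostly below 5 FPKM and peaked together in 2 libraries, OIR KO 2 and RA WT 1. The 8 members other than Cryab summed to 3.90, 28.7 and 6.91 FPKM in OIR KO libraries 1, 2 and 3, to 4.38, 4.89 and 6.16 FPKM in OIR WT, and to 40.2, 7.54 and 3.94 FPKM in RA WT. Most of the OIR WT sums was Crybb3, which was at 1.39 to 6.58 FPKM in all 9 libraries. Without Crybb3, the sums were 1.73, 23.0 and 3.64 FPKM in OIR KO, 0.564, 1.30 and 1.80 FPKM in OIR WT and 33.6, 5.56 and 2.55 FPKM in RA WT. Every OIR WT library then lay below every RA WT library. OIR KO 2 and RA WT 1 stood apart from the other libraries of their own groups, and no OIR WT library did. These 2 libraries were the highest pair for each of the 8 members other than Cryab, which is the observation that sets them apart here and is given as a description. RA WT 1 was the highest library for 7 of the 8, and OIR KO 2 for Cryba4. The plot of each member by library shows the pattern.

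**Figure D1:**
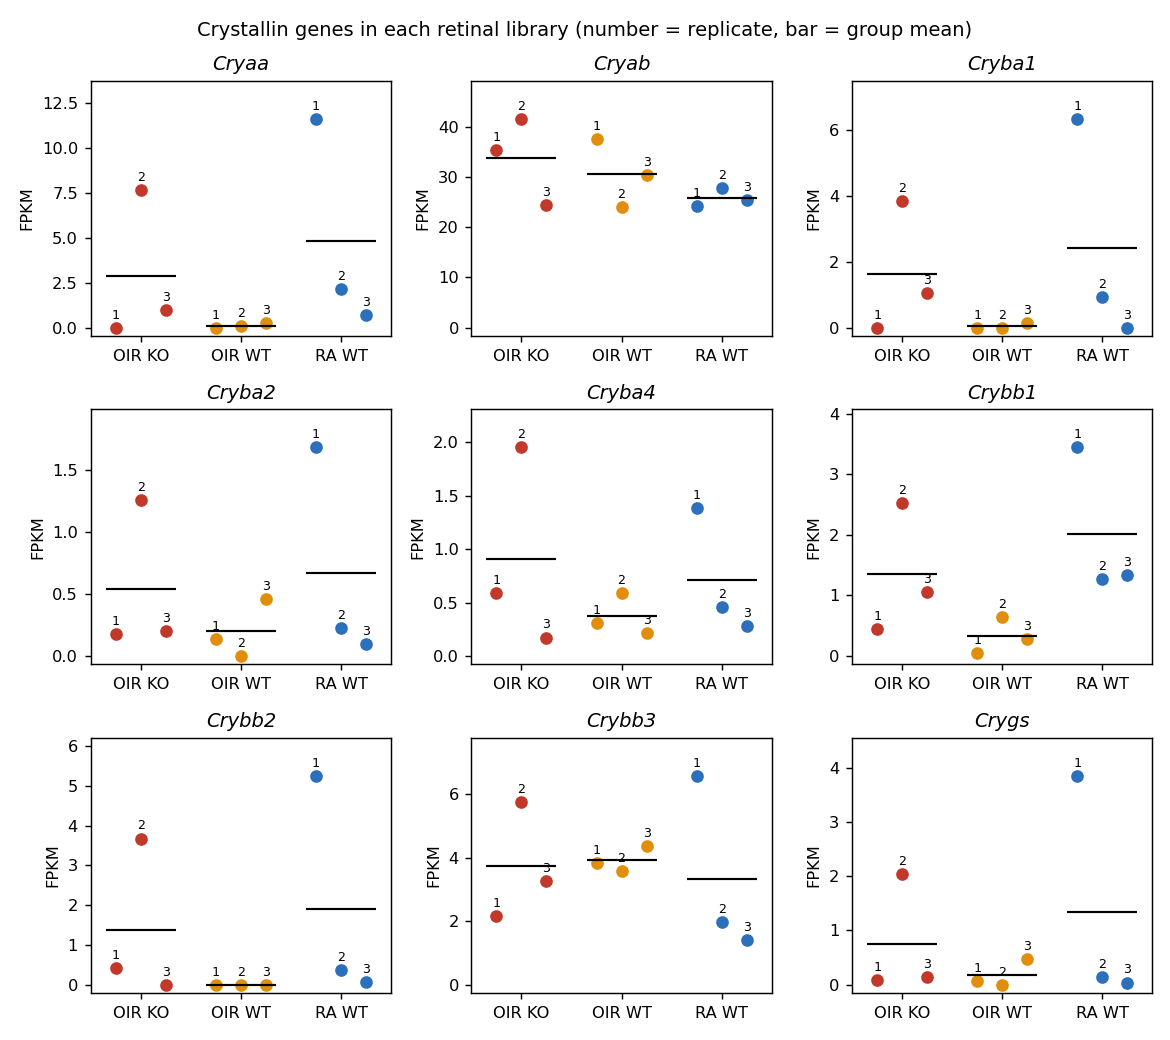
FPKM of the 9 crystallin members (1 panel per gene, each with its own linear axis) in OIR KO, OIR WT and RA WT retinas; numbered points are libraries and bars are group means of 3. Cryab lies between 24.0 and 41.6 FPKM in all libraries, whereas OIR KO 2 and RA WT 1 are the 2 highest points of the other 8 genes.

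Cryaa, the lens alpha crystallin, was the highest of the 8 low members in both high libraries and near 0 in OIR WT. It had 0, 7.68 and 1.01 FPKM in OIR KO libraries 1, 2 and 3, against 0, 0.0681 and 0.230 FPKM in OIR WT and 11.6, 2.17 and 0.721 FPKM in RA WT. All 3 OIR WT libraries lay below all 3 RA WT libraries, while OIR KO overlapped both groups. The OIR WT over RA WT difference was -2.53 on the log2(FPKM + 0.5) scale (SE 1.08, 95% interval -5.01 to -0.04), and it did not pass the test across all genes (limma, Benjamini-Hochberg adjusted p = 0.159). The constant of 0.5 compresses fold changes at levels this low. The difference was -1.61 when OIR KO 2 and RA WT 1 were left out (adjusted p = 0.0799 by limma). No OIR WT library of Cryaa reached 0.5 FPKM, so in both fits Cryaa passed the filter through OIR KO and RA WT libraries only.

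Cryab, the broadly expressed alpha crystallin, was the highest member in all 9 libraries. It had 35.4, 41.6 and 24.4 FPKM in OIR KO, 37.6, 24.0 and 30.4 FPKM in OIR WT and 24.3, 27.7 and 25.4 FPKM in RA WT. The means were 33.8 ± 8.70 FPKM in OIR KO, 30.7 ± 6.81 FPKM in OIR WT and 25.8 ± 1.76 FPKM in RA WT (SD, n = 3 each). The 3 groups overlapped, and the RA WT libraries were the closest together. No comparison passed the test: the log2 differences were 0.22 for OIR WT over RA WT (95% interval -0.23 to 0.68, limma adjusted p = 0.499), 0.35 for OIR KO over RA WT (-0.10 to 0.81, adjusted p = 0.296) and 0.13 for OIR KO over OIR WT (-0.33 to 0.58, adjusted p = 0.890). Within retinopathy, the highest Cryab values were in OIR KO 2 and OIR WT 1, and RA WT 1, the highest library for most other members, held the second-lowest Cryab value of the 9. The summed level of 8 genes listed for astrocytes and gliosis, among them Gfap and the endothelin Edn2, is given beside Cryab. The sum was 140, 532 and 89.5 FPKM in OIR KO, 417, 154 and 482 FPKM in OIR WT and 27.3, 26.7 and 46.9 FPKM in RA WT. Edn2 alone gave 38.8, 128 and 18.4 FPKM in OIR KO, 118, 36.5 and 116 FPKM in OIR WT and 0.555, 0.577 and 1.37 FPKM in RA WT. In both retinopathy groups the library lowest in Cryab was also the lowest in this sum. The match was partial: RA WT 2 had the lowest sum of RA WT but its highest Cryab value. OIR WT 3 had the highest sum of OIR WT, while OIR WT 1 had its highest Cryab value. The part of gliosis in the Cryab values was not tested.

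Among the beta crystallins of the acidic type, Cryba1, which is also expressed in retinal astrocytes of rodents, had 0, 3.84 and 1.06 FPKM in OIR KO, 0, 0 and 0.132 FPKM in OIR WT and 6.33, 0.926 and 0 FPKM in RA WT. It was thus listed at 0 in 4 libraries spread over the 3 groups, and the groups overlapped. No OIR WT library reached 0.5 FPKM, so Cryba1 passed the filter through OIR KO and RA WT libraries only. The OIR WT over RA WT difference was -1.65 on the log2 scale with an interval of -3.96 to 0.66 (limma adjusted p = 0.311). Single libraries moved this Cryba1 difference widely, to -0.64 without RA WT 1 and to -2.53 without RA WT 3. Cryba2, a lens structural protein, had 0.174, 1.25 and 0.199 FPKM in OIR KO, 0.141, 0 and 0.462 FPKM in OIR WT and 1.68, 0.222 and 0.0938 FPKM in RA WT. It reached 0.5 FPKM in OIR KO 2 and RA WT 1 alone and was therefore not tested in the filtered table. Cryba4, the divergent neighbour of Crybb1, had 0.591, 1.96 and 0.174 FPKM in OIR KO, 0.312, 0.594 and 0.216 FPKM in OIR WT and 1.39, 0.460 and 0.281 FPKM in RA WT. Its group means were 0.907 ± 0.932 FPKM in OIR KO, 0.374 ± 0.197 FPKM in OIR WT and 0.709 ± 0.593 FPKM in RA WT (SD, n = 3 each), so the spread within OIR KO and RA WT exceeded the differences between means. Of the 3 log2 differences of Cryba4, the OIR KO over OIR WT one was the largest at 0.50 (interval -0.58 to 1.58, limma adjusted p = 0.782).

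Among the basic beta crystallins, Crybb1 had the lowest adjusted p of the members between OIR WT and RA WT. It had 0.454, 2.52 and 1.06 FPKM in OIR KO, 0.0538, 0.643 and 0.288 FPKM in OIR WT and 3.45, 1.28 and 1.34 FPKM in RA WT. Every OIR WT library lay below every RA WT library, and OIR KO overlapped both. The means were 1.35 ± 1.06 FPKM in OIR KO, 0.328 ± 0.297 FPKM in OIR WT and 2.02 ± 1.23 FPKM in RA WT (SD, n = 3 each). The OIR WT over RA WT difference was -1.56 on the log2 scale (SE 0.47, interval -2.64 to -0.49), and it did not pass the threshold of 0.05 (limma adjusted p = 0.0554, and 0.0299 to 0.0893 over the other settings that kept all libraries of the comparison or left out both high ones). Leaving out 1 library at a time gave adjusted p-values of 0.0546 to 0.178. The OIR KO over OIR WT difference of Crybb1 was 1.06 (interval -0.01 to 2.13, adjusted p = 0.512 by limma).

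Crybb2, an abundant basic beta crystallin of the adult lens, had 0.421, 3.68 and 0 FPKM in OIR KO and 5.26, 0.373 and 0.0704 FPKM in RA WT, and it was listed at 0 in all 3 OIR WT libraries. The OIR WT libraries thus lay below the RA WT libraries, but Crybb2 reached 0.5 FPKM in OIR KO 2 and RA WT 1 alone and was left out by the filter. Its neighbour Crybb3 behaved otherwise. Crybb3 had 2.17, 5.75 and 3.27 FPKM in OIR KO, 3.82, 3.59 and 4.37 FPKM in OIR WT and 6.58, 1.98 and 1.39 FPKM in RA WT. After Cryab it was the highest member in every OIR WT library, with a mean of 3.92 ± 0.401 FPKM in OIR WT, beside 3.73 ± 1.83 FPKM in OIR KO and 3.32 ± 2.84 FPKM in RA WT (SD, n = 3 each). The groups overlapped: RA WT 1 was above and RA WT 2 and 3 were below the OIR WT libraries.

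The OIR WT over RA WT difference of Crybb3 was 0.46 on the log2 scale with all libraries (SE 0.48, interval -0.64 to 1.55, limma adjusted p = 0.565). Without OIR KO 2 and RA WT 1 it was 1.03 (SE 0.20, limma adjusted p = 0.0136), and without RA WT 1 alone it was 1.03 (adjusted p = 0.0645). In the same fit without the 2 libraries, Crybb1 was lower in OIR WT, at -1.19 (SE 0.33, limma adjusted p = 0.0450). Crybb3 and Crybb1 thus passed the threshold in opposite directions once both libraries were left out, and neither passed it with all 9. The libraries were left out because of their crystallin levels, so these values show how far the result rests on them and are not an independent test. Within OIR KO, Crybb3 without those libraries differed by 0.55 from RA WT (adjusted p = 0.202) and by -0.48 from OIR WT (adjusted p = 0.379), both by limma.

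Crygs, the gamma crystallin of the lens cortex and the only gamma member, had 0.0870, 2.05 and 0.138 FPKM in OIR KO, 0.0579, 0 and 0.469 FPKM in OIR WT and 3.86, 0.130 and 0.0376 FPKM in RA WT. The 2 high libraries again stood alone, and the other 7 lay at or below 0.469 FPKM, under the filter. When the filter was dropped, none of the 3 members it had removed passed the test. Their OIR WT over RA WT differences were -0.53 for Cryba2, -1.51 for Crybb2 and -0.82 for Crygs on the log2 scale (limma adjusted p from 0.364 to 0.600), and the largest adjusted p-value among their other comparisons was 0.978.

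The order of levels per unit of length differed between the libraries. In OIR WT it was Cryab, then Crybb3, with every other member below 0.7 FPKM and neighbours in the order of those low members overlapping in their ranges. In OIR KO 2 and RA WT 1 Cryaa stood second, at 7.68 FPKM in OIR KO 2 and 11.6 FPKM in RA WT 1, and Crybb3, Cryba1 and Crybb2 followed between 3.68 and 6.58 FPKM. The ratio between the 2 libraries varied from gene to gene, and without depths its counting error is unknown. RA WT 1 over OIR KO 2 ranged from 0.708 for Cryba4 to 1.89 for Crygs over the 8 members, with a median of 1.40. Over the 6 gamma crystallins Cryga to Crygf the same ratio was higher, from 1.80 to 2.73 with a median of 2.18. Taking each library's excess over the mean of the other 2 libraries of its group changed little: the excess ratio of RA WT 1 to OIR KO 2 had a median of 1.44 over the members and of 2.19 over the 6 gamma genes. For Crybb3 the excess was 3.03 FPKM in OIR KO 2 and 4.90 FPKM in RA WT 1, on top of 1.39 to 3.27 FPKM in the other libraries of those groups.

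**Figure D2:**
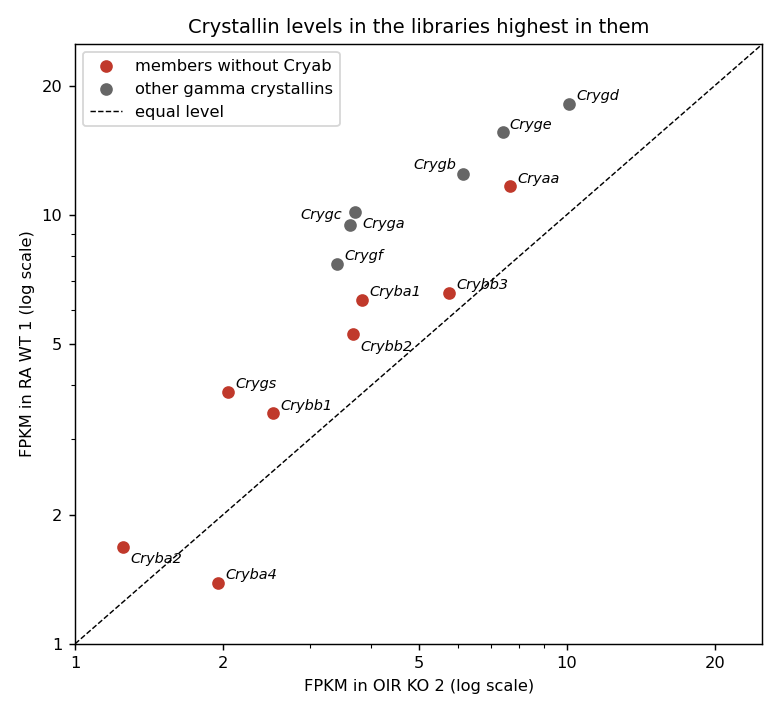
FPKM in RA WT 1 (vertical axis) against OIR KO 2 (horizontal axis), both on log scales, for 8 members without Cryab and for the gamma crystallins Cryga to Crygf; each point is a gene and the dashed line marks equal levels. All 6 gamma crystallins lie above the line, at 1.80 to 2.73 times, and 7 of the 8 members do, with Cryba4 below it.

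The gamma crystallins that are not members, which are structural lens proteins, peaked in the same 2 libraries. Cryga to Crygf summed to 0.537, 34.4 and 3.24 FPKM in OIR KO, 0, 0 and 0.658 FPKM in OIR WT and 73.4, 4.51 and 0.798 FPKM in RA WT. RA WT 1 was the highest, OIR KO 2 the second and RA WT 2 the third library for each of the 6. Per gene, the ranges over the 9 libraries were 0 to 10.1 FPKM for Cryga, 0 to 12.4 for Crygb, 0 to 9.48 for Crygc, 0 to 18.2 for Crygd, 0 to 15.6 for Cryge and 0 to 7.70 for Crygf. Crygn, a more distant gamma relative, ranged from 0 to 0.668 FPKM and was highest in RA WT 3. Of the 4 gamma genes that passed the filter, none passed the test in any of the 3 comparisons with all libraries, also at an unadjusted p under 0.05 (limma). Without the 2 libraries only Crygd was left to test, and it was lower in OIR WT than in RA WT by limma (log2 difference -1.31, adjusted p = 0.0181). Crygd then passed the filter through OIR KO 3, RA WT 2 and RA WT 3 (1.06, 1.13 and 0.548 FPKM), with OIR WT at 0, 0 and 0.0838 FPKM. The 2 libraries were left out because of their crystallin levels, so this value is not an independent test.

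Other genes of the lens followed the crystallins only in part. OIR KO 2 and RA WT 1 were the highest pair for 1 of 15 such genes (6.67%), and for 0.893% of all tested genes. Lim2, a membrane protein of lens fibres, had 0, 0.279 and 0 FPKM in OIR KO, 0 FPKM in each OIR WT library and 0.725, 0.388 and 0.0496 FPKM in RA WT, so it was listed at 0 in 5 libraries. Mip, the lens fibre water channel aquaporin 0, ranged from 0.192 to 0.838 FPKM and was highest in RA WT 1, as was the beaded filament protein Bfsp1 (0.245 to 0.604 FPKM). Dnase2b, the nuclease that clears fibre cell nuclei, and Foxe3, a transcription factor of the lens epithelium, were listed at 0 in all 9 libraries. The lens connexin Gja3 stayed at or below 0.282 FPKM. The other low ones ranged from 0.0439 to 0.799 FPKM for Lgsn, 0 to 0.388 for Grifin, 0 to 0.172 for Birc7, 0 to 0.0515 for Pitx3 and 0 to 0.0641 for Lctl. Lenep ranged from 0.003 to 2.26 FPKM, Hsf4, the heat shock factor of the lens, from 1.02 to 2.74 FPKM, and Tdrd7, which is not restricted to lens, from 57.8 to 90.8 FPKM. Without Tdrd7, the other 14 lens genes summed to 3.37 to 5.60 FPKM in OIR KO, 3.65 to 4.93 FPKM in OIR WT and 6.19 to 7.84 FPKM in RA WT, so all 3 RA WT libraries lay above all others in this sum. That separation rested on Hsf4, which gave 2.74 of the 6.19 FPKM in RA WT 3 and 1.19 of the 5.60 FPKM in OIR KO 2. Without Hsf4, RA WT 3 would lie below OIR KO 2. The part of lens RNA in the crystallin values was not tested.

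**Figure D3:**
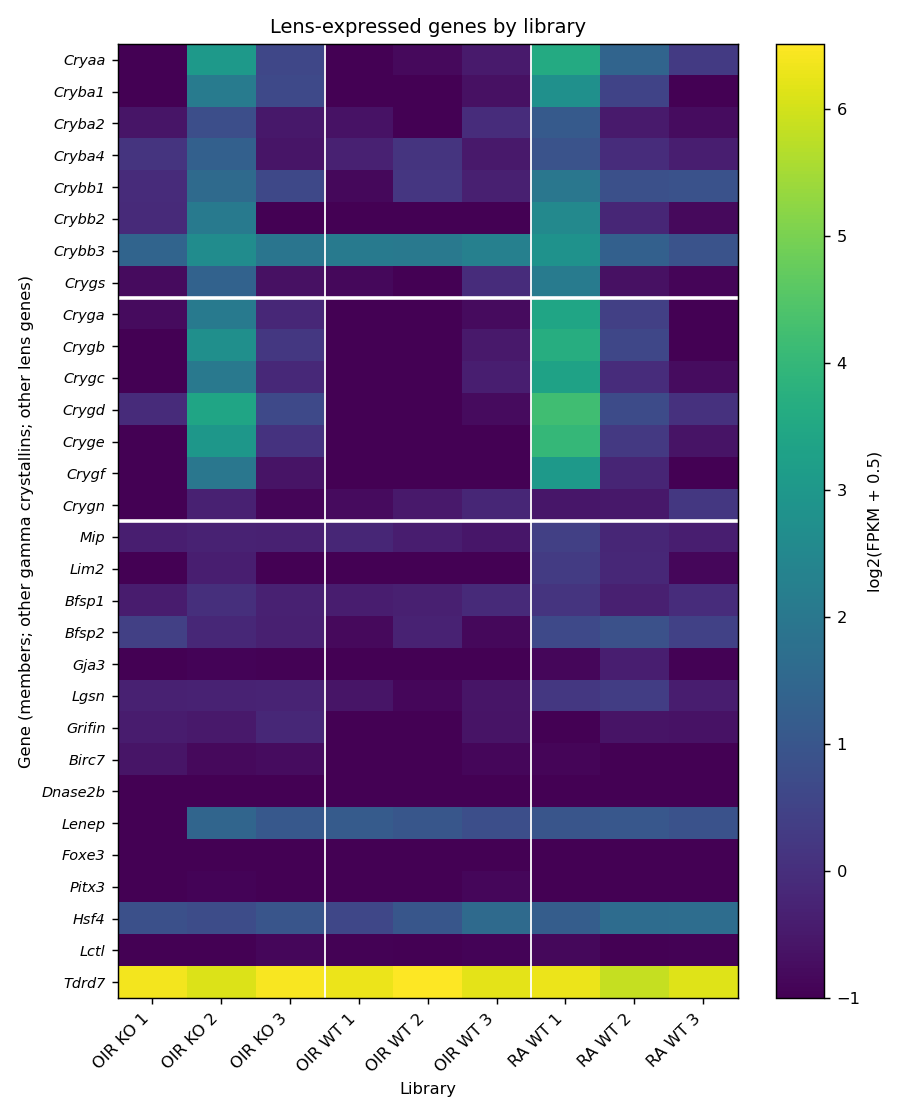
Level of 8 crystallin members without Cryab, 7 further gamma crystallins and 15 other lens genes (rows) in each library (columns, OIR KO, OIR WT and RA WT), coloured by log2(FPKM + 0.5). The rows of these 8 members are brightest in OIR KO 2 and RA WT 1, while Dnase2b and Foxe3 are at the floor in all 9 libraries.

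Lens genes under the filter, among them Lim2, Gja3 and Lgsn, were not tested. Of the 4 tested, Bfsp2, the partner of Bfsp1 in the beaded filament, was the 1 that was called. It was lower in OIR WT than in RA WT, where 7.92% of all tested genes were called lower. It reached 0.5 FPKM in the 3 RA WT libraries and OIR KO 1 alone, so it entered the test mainly through the group where it was high. It ranged from 0.0592 to 1.31 FPKM over the 9 libraries and averaged 0.509 ± 0.299 FPKM in OIR KO, 0.151 ± 0.145 FPKM in OIR WT and 1.09 ± 0.222 FPKM in RA WT (SD, n = 3 each). The OIR WT over RA WT difference was -1.30 on the log2 scale (SE 0.24, limma adjusted p = 0.00788), and all 6 fits that left out a library of the comparison kept the call, as did the fit without OIR KO 2 and RA WT 1 (adjusted p = 0.0221). For Bfsp2, the OIR KO over RA WT difference of -0.69 did not pass (adjusted p = 0.0985 by limma).

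Put against all tested genes, OIR WT differed from RA WT at 16.0% of them (8.04% higher, 7.92% lower, limma adjusted p under 0.05), and none of the 6 tested crystallin members passed in that comparison. At an unadjusted p under 0.05, 2 of the 6 passed, Cryaa and Crybb1, both lower in OIR WT. The share of all tested genes at an unadjusted p under 0.05 is not given. Unadjusted counts, here and for the other lists, are therefore descriptions that cannot be set against a background. The median log2 difference was -0.97 over the 6 members and 0.02 over all genes. No OIR WT library reached 0.5 FPKM for Cryaa or Cryba1. These 2 of the 6 members entered the test only through the groups where they were high, so the median rests in part on the filter. Groups did not overlap, with OIR WT lower, for 3 members, Cryaa, Crybb1 and Crybb2, of which the first 2 were among the 6 tested, and this held for 17.2% of all tested genes. Without OIR KO 2 and RA WT 1, only Cryaa, Cryab, Crybb1 and Crybb3 passed the filter, and 2 of these 4 were called, against 16.0% of 15395 genes. The median log2 difference of these 4 was -0.50.

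OIR KO differed from RA WT at 10.4% of genes (4.75% higher, 5.69% lower, limma), and 0 of the 6 members passed, also at an unadjusted p under 0.05. The log2 differences were -0.90 for Cryaa (adjusted p = 0.645), -0.17 for Cryba1 (0.934), 0.12 for Cryba4 (0.904), -0.51 for Crybb1 (0.533) and 0.31 for Crybb3 (0.727), all by limma. The intervals were wide, for example -0.79 to 1.40 for Crybb3. The median of the 6 members was -0.03, against 0.02 over all genes. Without the 2 high libraries 3.36% of genes were called and again no member was. The differences of the 4 members left were -1.06 for Cryaa, 0.14 for Cryab, -0.57 for Crybb1 and 0.55 for Crybb3, with a median of -0.21.

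OIR KO against OIR WT, the comparison of genotypes within retinopathy, gave 21 called genes, 0.134% of those tested, and none was a crystallin member, also at an unadjusted p under 0.05 (limma). The differences were 1.63 for Cryaa (interval -0.85 to 4.12, adjusted p = 0.673), 1.47 for Cryba1 (adjusted p = 0.686) and -0.15 for Crybb3 (interval -1.24 to 0.94, adjusted p = 0.959). The median log2 difference was 0.78 over the 6 tested members, against -0.00 over all genes. It was 0.26 over the 4 members left to test without OIR KO 2 and RA WT 1. Without OIR KO 2 and RA WT 1 the differences were 0.55 for Cryaa, -0.04 for Cryab, 0.62 for Crybb1 and -0.48 for Crybb3, with adjusted p-values from 0.379 to 0.961 by limma, while 0.175% of all genes were called. The comparisons share libraries, so their values for a member are not independent of each other.

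**Figure D4:**
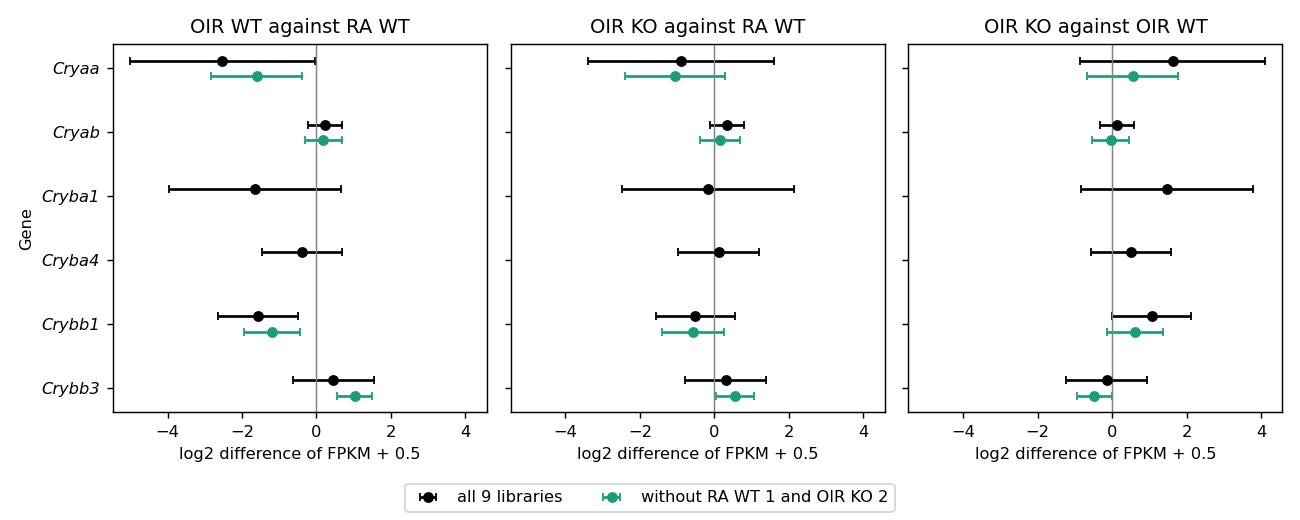
log2 difference of FPKM + 0.5 (horizontal axis, point with 95% interval) of the tested crystallin members in 3 comparisons (panels), with all 9 libraries and without OIR KO 2 and RA WT 1. With all 9 libraries no member passes the test, and without the 2 libraries Crybb1 (-1.19) and Crybb3 (1.03) pass in OIR WT over RA WT.

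Heat shock factors and inducible chaperones are related to the alpha crystallins by function, since both handle unfolding proteins. Of 10 such genes tested, 5 were higher in OIR WT than in RA WT and none was lower, with a median of 0.50 (limma), where 8.04% of all tested genes were higher. The number was also 5 without OIR KO 2 and RA WT 1, but it was 3 without OIR WT 1 or RA WT 2 and 4 when any 1 of the other 4 libraries was left out. Bag3, a co-chaperone of Hsp70 that works with small heat shock proteins, had 6.19, 9.91 and 4.64 FPKM in OIR KO, 9.27, 5.72 and 14.9 FPKM in OIR WT and 1.99, 2.54 and 2.99 FPKM in RA WT. Every retinopathy library lay above every RA WT library. The OIR WT over RA WT difference of Bag3 was 1.72 (SE 0.35, adjusted p = 0.0135 by limma), and the OIR KO over RA WT difference was 1.25 and did not pass (adjusted p = 0.0535). The Hsp70 genes Hspa1a (0.71, adjusted p = 0.00717) and Hspa1b (0.79, adjusted p = 0.0144) are near-identical copies whose values are uncertain singly. Hsp90aa1, the inducible Hsp90, was higher by 0.69 (adjusted p = 0.0290), and its call was lost when OIR WT 1, OIR WT 2, RA WT 2 or RA WT 3 was left out (highest adjusted p = 0.0964, limma). Dnajb1, an Hsp40 co-chaperone, was higher by 0.52 (adjusted p = 0.0317), a call kept in 1 of the 6 fits that left out a library, the one without OIR WT 2 (highest adjusted p = 0.110, limma). Of the same 10 genes, 0 passed in OIR KO over RA WT and in OIR KO over OIR WT by limma, where 2 and 5 had an unadjusted p under 0.05.

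Of 5 small heat shock genes tested besides the alpha crystallins, 0 passed in any comparison with all libraries (limma), and 2 had an unadjusted p under 0.05 in OIR WT over RA WT, 1 in OIR KO over RA WT and 2 in OIR KO over OIR WT. Hspb1, the stress-induced family member, had 5.60, 13.0 and 5.12 FPKM in OIR KO, 12.7, 11.7 and 17.1 FPKM in OIR WT and 5.86, 8.95 and 8.26 FPKM in RA WT. OIR KO 2 lay with the OIR WT libraries, and the other 2 OIR KO libraries lay below all others. Without OIR KO 2 and RA WT 1, Hspb1 was lower in OIR KO than in OIR WT (log2 difference -1.27, SE 0.16, limma adjusted p = 0.0317), whereas with all libraries the difference was -0.87 (adjusted p = 0.428). In that reduced fit Hspb1 was also higher (0.64) and Hspb8 lower (-0.83) in OIR WT than in RA WT. OIR KO 2 differed from the other OIR KO libraries in blood as well: 5 erythrocyte genes, globins and Alas2, summed to 112, 1070 and 113 FPKM in OIR KO, 1171, 512 and 1431 FPKM in OIR WT and 94.8, 82.5 and 158 FPKM in RA WT. RA WT 1, the other library high in crystallins, was not high in erythrocyte genes, and the part of either sum in the crystallin or Hspb1 values was not tested.

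Of the enzymes and distant relatives that carry a crystallin name, 8 of 10 were in the table and 6 were tested. In OIR WT over RA WT 2 of the 6 were called, against 16.0% of all tested genes. In OIR KO over RA WT 1 of the 6 was called, against 10.4%. Crym, a thyroid hormone binding protein that is a lens crystallin in marsupials, had 148, 258 and 106 FPKM in OIR KO, 242, 108 and 211 FPKM in OIR WT and 39.7, 59.5 and 60.5 FPKM in RA WT. Both retinopathy groups lay above RA WT without overlap. The differences passed in OIR WT over RA WT (1.75, limma adjusted p = 0.0216) and in OIR KO over RA WT (1.60, adjusted p = 0.0395). Each of these calls was lost in 5 of the 6 fits that left out 1 library of the comparison, with adjusted p-values up to 0.0767 and 0.106, OIR WT 2 and OIR KO 3 being the libraries whose removal kept them. The Crym difference of OIR KO from RA WT was 1.05 without OIR KO 2 and RA WT 1 (adjusted p = 0.196, limma). Cryzl2 was higher in OIR WT by 1.39 (adjusted p = 0.0212), likewise lost in 5 of 6 such fits, all but the one without OIR WT 2 (highest adjusted p = 0.0769). None of the 6 passed in OIR KO over OIR WT (limma), where 1 had an unadjusted p under 0.05.

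Of 12 transcription factors known to act on crystallin promoters in the lens, 11 were tested. In OIR WT over RA WT 2 of the 11 were called, against 16.0% of all tested genes. In OIR KO over RA WT 1 of the 11 was called, against 10.4%. Pax6, the eye selector gene that is also expressed in amacrine and ganglion cells, was lower in OIR WT than in RA WT (-0.39, limma adjusted p = 0.0186), and the call was lost without OIR WT 1, OIR WT 3 or RA WT 2 (highest adjusted p = 0.0691). Rarb, a retinoic acid receptor, was higher (0.61, adjusted p = 0.0325), and leaving out any 1 of the 6 libraries lost the call (adjusted p from 0.0555 to 0.110). Mafa, one of the Maf factors whose core motif is marked in the promoters above, was lower in OIR KO than in RA WT (-0.87, adjusted p = 0.0198), and the call was lost without OIR KO 1, OIR KO 2, RA WT 2 or RA WT 3 (highest adjusted p = 0.0759, limma). Without OIR KO 2 and RA WT 1 together, the Mafa difference of -0.94 did not pass (adjusted p = 0.0604, limma). Creb1, a cyclic AMP response factor, had 12.6, 13.4 and 11.7 FPKM in OIR KO, 9.32, 11.6 and 12.6 FPKM in OIR WT and 11.7, 2.52 and 5.70 FPKM in RA WT, so RA WT 1 lay with the retinopathy libraries. Its differences from RA WT did not pass with all libraries (0.92 in OIR WT, adjusted p = 0.183, and 1.10 in OIR KO, adjusted p = 0.137), and passed without OIR KO 2 and RA WT 1 (1.42, adjusted p = 0.0182, and 1.55, adjusted p = 0.0486, limma). In OIR KO over OIR WT none of the 11 passed (limma), and none had an unadjusted p under 0.05.

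Markers of retinal and neighbouring cell types gave the following counts in OIR WT over RA WT, where 8.04% of all tested genes were higher and 7.92% lower. Of 11 Müller glia genes 2 were higher and 6 lower, of 7 gliosis genes tested 6 were higher, of 6 ganglion cell genes 4 were lower, of 7 amacrine and bipolar genes 4 were lower, of 5 erythrocyte genes 5 were higher, and of 7 rod genes 0 passed (limma), also at an unadjusted p under 0.05. Of 8 pigment epithelium genes Rgr alone was lower (-1.10, limma adjusted p = 0.0401), a call kept only when OIR WT 2 was the library left out (up to 0.132 otherwise). Of 5 genes of ciliary body, iris and cornea Optc alone was lower (-1.23, adjusted p = 0.0158), a call lost without OIR WT 1, OIR WT 3 or RA WT 2 (highest adjusted p = 0.0605, limma). In OIR KO over RA WT, 4.75% of all tested genes were higher and 5.69% lower. There, 3 Müller glia, 4 ganglion cell and 2 amacrine and bipolar genes were lower, 3 gliosis genes were higher, and 0 passed in the other 4 lists. In OIR KO over OIR WT, where 0.134% of all tested genes were called, 0 of the 56 genes tested in these 8 lists passed (limma). Of these, 18 had an unadjusted p under 0.05. Pigment epithelium genes summed to 68.7 FPKM in OIR KO 2 and 77.3 FPKM in RA WT 1, inside the range of the other 7 libraries, and ciliary, iris and cornea genes to 87.1 FPKM in OIR KO 2 and 62.9 FPKM in RA WT 1.

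The genes most like 3 crystallin profiles were listed by Pearson's r of log2(FPKM + 0.5) over the 9 libraries, among 12748 genes with an Ensembl ID that passed the filter on low values and had a mean of at least 1 FPKM, as a description with no p. For Cryaa they were Crygb (0.966), Cryge (0.966), Crygd (0.965), Cryga (0.955) and Etfbkmt (0.935), a mitochondrial methyltransferase. For the mean of the 7 beta and gamma members they were Cryge (0.986), Crygb (0.984), Cryga (0.982), Crygd (0.971) and again Etfbkmt (0.926). Cryaa, these 4 gamma crystallins and Etfbkmt share OIR KO 2 and RA WT 1 as their highest libraries, as did 0.893% of all tested genes. The lens genes Mip, Lim2 and Bfsp1 averaged below 1 FPKM and were not candidates. For Cryab they were other genes: Mettl2 (0.949), the kinase gene Bmp2k (0.944), Trabd (0.939), the collagen gene Col1a2 (0.938) and Prdx1 (0.922), which encodes a peroxiredoxin. No gamma crystallin was among the 5 nearest to Cryab.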

How the data were processed

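RNA from 9 mouse retinal samples, 3 per group, was sequenced; per the labels' protocols, RNA was extracted with Trizol and libraries were made with an NEBNext Ultra kit. The authors deposited 1 table of FPKM values with 1 column per library. HISAT2 and GRCm38 are named, without their roles, in the submitters' processing notes; neither the quantifier, its annotation nor the strand setting is named in the labels or the table. Low values were whole multiples of a smallest step (within 0.02 of a step) for only 4.25 to 27.8% of low values per library, so reads were not recovered, the depth is unknown, and no counting interval is given. Column totals of FPKM lay between 344876 and 366536.

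From the table, log2(FPKM + 0.5) was computed without further scaling, and 15678 of the 25108 entries reached 0.5 FPKM in 3 or more libraries and were tested. A linear model with a mean for each group was fitted with limma 3.58.1 (R 4.3.3) to the 9 libraries together, with trended and robust moderation and 6 residual degrees of freedom. Tests were two-sided, p-values were adjusted by Benjamini-Hochberg over all kept genes, and an adjusted p under 0.05 was called. The scripts were tested on simulated data. The 9 members, the gene lists and the pair of libraries left out together were chosen with earlier results of these data known. All members are named; other lists are described by counts and by their called genes, at most 4 per list apart from Dnajb1, which was named after its values were seen, and every gene of the lens and gamma lists is given with its range, except 1 gene of the lens list that is not reported here. Of 22036 Ensembl IDs, 22022 matched GENCODE M21. Coding sequences were aligned with Biopython 1.88, tables were read with pandas 2.3.3 in Python 3.11.15, and plots were drawn with matplotlib 3.10.9. Alternatives were 2 pseudocounts, 2 filters, 2 scalings, a fit to 6 libraries, plain moderation, a replicate block, each library left out, and OIR KO 2 and RA WT 1 left out together. The effect of that last setting on the counts of the other gene lists was added after seeing the data.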

Additional observations from a re-analysis of the deposited data

How the results depend on the processing

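With 275 values of the 6 tested members under the alternatives, 255 kept their direction and their side of the threshold, 0 lost a call, 6 gained one and 14 changed sign without being called. The gained calls in OIR WT over RA WT were Crybb1, so that 1 member was called lower, under a pseudocount of 0.1 (limma adjusted p = 0.0490), quantile normalization (0.0464), scaling to a common median (0.0482), the fit to the 6 libraries of the comparison (0.0299) and the fit without OIR KO 2 and RA WT 1 (0.0450), and Crybb3, 1 member called higher, in the last of these. The fits without both libraries tested fewer samples and genes. Signs changed for OIR KO over RA WT in Cryba4 under quantile normalization (-0.0047) and for OIR KO over OIR WT in Cryab without the 2 libraries (-0.037). Leaving out 1 library at a time, OIR KO over RA WT ran from -1.97 to 0.042 in Cryaa, -1.05 to 0.83 in Cryba1, -0.39 to 0.54 in Cryba4 and -0.075 to 0.88 in Crybb3, and OIR KO over OIR WT from -0.037 to 0.34 in Cryab, -0.0037 to 0.93 in Cryba4 and -0.48 to 0.14 in Crybb3.

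The counts over all genes were 1261 higher and 1242 lower (OIR WT over RA WT), 744 and 892 (OIR KO over RA WT) and 9 and 12 (OIR KO over OIR WT). With 1 library left out they ran from 546 to 1181 higher and 493 to 1120 lower, from 283 to 848 and 402 to 944, and from 1 to 6 and 6 to 37. Same-numbered libraries did not deviate together (r from -0.353 to 0.134 over 9 pairs), and the main fit did not pair them. With 3 libraries per group this check cannot exclude a shared batch. The replicate block gave 802 higher in OIR WT over RA WT, 411 higher in OIR KO over RA WT, and 1 higher and 7 lower in OIR KO over OIR WT, and no member was called under it. OIR KO over RA WT gave 467 higher in the fit to its 6 libraries, and 181 higher and 337 lower without OIR KO 2 and RA WT 1. OIR KO over OIR WT gave 4 higher with a pseudocount of 1, 4 without a filter, 3 with a filter of 1 FPKM, 4 with plain moderation, and 5 higher and 22 lower without the 2 libraries. The causes of these shifts were not tested. The unknown depth limits all values below about 1 FPKM, which for most members are most of their values.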
